A study of Mus musculus with 2 samples.

Results

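Chromatin accessibility of the complement genes C1qa, C1qb, C1qc, C3, C4b, C3ar1, C5ar1 and Itgam was measured by single-cell ATAC-seq in the brains of sham and stroke mice. In this assay a transposase cuts open chromatin, and each fragment counted lies between 2 such cuts. The 8 genes, of 21938 protein-coding genes, were chosen as core components and receptors of the complement system. They were not chosen for values in the fragment files, although earlier results of these data were known. For each gene, fragments that overlapped the gene body or the 2 kb upstream of it were counted, and levels are given per 1000000 fragments (CPM) of the same library or class of nuclei. CPM values per kb of this window were used to compare genes of different lengths.

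The stroke library held nuclei from the ipsilateral hemispheres of 4 mice, pooled, collected 48 h after transient occlusion of the middle cerebral artery by a filament followed by reperfusion (MCAO/R). The sham library held nuclei from 4 pooled brains of mice that had the filament inserted without sustained occlusion. All animals were wild-type male C57BL/6J mice, the tissue was flash-frozen, and olfactory bulbs and cerebellum were left out. Each condition had 1 library, so an effect of stroke, of the hemisphere sampled and of the library itself cannot be told apart. No test between conditions was possible, and no replicate spread exists. Intervals below are exact 95% intervals for counting error alone, Poisson for levels, binomial for shares and conditional binomial for ratios. Where a ratio is divided by another ratio, the 95% interval is approximate, from a normal approximation on the log scale. A gene was called higher or lower when the level in stroke differed from that in sham by at least 1.5-fold, with at least 20 fragments in both libraries together.

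Complement is a cascade of plasma and tissue proteins that marks particles, synapses and cell debris for removal. In the classical pathway the C1q complex binds its target, C4 and then C3 are cleaved, and fragments of C3 stay on the surface while the small peptides C3a and C5a diffuse away. C3ar1 and C5ar1 are the receptors for these peptides, and Itgam, also called CD11b, is the alpha chain of a receptor that binds surface-bound C3 fragments. In the brain, microglia are the main source of C1q, while astrocytes and other cells make C4 and C3.

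Of the barcodes called as cells, 6817 of 6979 in sham and 5054 of 8740 in stroke had over 20% of their fragments in peaks and were kept, with 73449269 and 52773775 fragments. The 3686 stroke barcodes left out by this filter had a summed C1q level of 8.39 CPM, against 13.9 CPM in the kept stroke nuclei. Between the libraries, 42 kept barcodes had the same sequence. The density over 329 vomeronasal receptor genes, which are silent in brain, was 0.0359 CPM per kb in sham and 0.0610 CPM per kb in stroke, so the background over closed genes was higher in the stroke library. The part of this background in the ratios below was not tested. All 8 members lay above it in both libraries, with Itgam the lowest at 0.143 CPM per kb in sham and 0.204 CPM per kb in stroke. This compares levels and does not bear on the ratios.

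Nuclei were sorted into classes on other genes in 2 ways. The marker gate asked for an excess of fragments over lists of cell type markers, and the profile gate, added after the marker gate had been examined, compared each nucleus with the profile of 8 classes over 21830 protein-coding genes more than 100 kb from any member. The marker gate gave 159 myeloid-like nuclei in sham and 238 in stroke, and the profile gate gave 39 and 323. The profile gate's myeloid-like class thus made up 0.572% of kept sham nuclei and 6.39% of kept stroke nuclei, and left 57.3% and 57.6% of all kept nuclei without a class.

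Held-out microglial genes (Sall1, Gpr34, Olfml3, Slc2a5, Sparc and Tgfbr1), which neither gate used, served to check the label. Their summed level in all kept sham nuclei was 96.1 CPM. In sham it was 118 CPM in the marker-gated myeloid-like class and 392 CPM in the profile-gated one, while both gates gave 267 CPM in stroke. The marker-gated myeloid-like class of sham therefore stood little above the whole library for these genes, and below the 161 CPM of the marker-gated astrocyte-like class. The label therefore holds for it only weakly. The list itself is not specific, since profile-gated astrocyte-like nuclei had 234 CPM in sham and 236 CPM in stroke. The profile-gated myeloid-like class of sham was above these values but rested on 39 nuclei with 247588 fragments and a median of 3550 fragments per nucleus, against 14693 in stroke. For this reason both gates are given for the ratios in myeloid-like nuclei.

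Genes of infiltrating macrophages and granulocytes were also read in the profile-gated myeloid-like class. The list of 10 infiltrating macrophage genes had 174 CPM in sham and 247 CPM in stroke, with fragments at 7 of 10 genes in sham, where Ly6c2, Chil3 and Lyz2 were at 0, and at 9 of 10 in stroke, where Ly6c2 was at 0. The list of 9 granulocyte genes had 28.3 CPM in sham and 47.8 CPM in stroke, and S100a8, S100a9, Retnlg and Camp were at 0 in sham. The list of 6 T and NK cell genes had 186 CPM in sham, with Cd3e, Cd3g and Nkg7 at 0, and 112 CPM in stroke. With the marker gate the same lists had 120.4 and 209 CPM, 28.2 and 44.5 CPM, and 169.8 and 124 CPM. The class may hold cells of more than 1 myeloid type, and the part of infiltrating cells in the complement values was not tested.

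The C1q genes and most of the receptors were open at short, well-defined sites. Positions are in mm10, with genes from GENCODE M21. C1qa (chr4:136895917-136898803), C1qc (chr4:136889804-136893065) and C1qb (chr4:136880129-136886187) lie in a row on the minus strand within 18.7 kb, with 5.74 kb between the starts of C1qa and C1qc and 6.88 kb between those of C1qc and C1qb. In myeloid-like nuclei of both libraries pooled, the 300-base window with most cut sites crossed the start of all 3 genes. Cut sites were scanned from 10 kb upstream to the end of the gene, so the totals at C1qb and C1qc include the start of a neighbouring C1q gene. Where windows tied for the maximum, as at C1qa, their middle position was taken. In the marker-gated class the maximum was 57 of 200 cut sites scanned at C1qa (28.5%), 84 of 529 at C1qb (15.9%) and 78 of 428 at C1qc (18.2%).

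The same held for C3ar1 (chr6:122847138-122856161, minus strand), whose most open window at chr6:122855956-122856255 crossed the gene start with 23 of 156 cut sites (14.7%). C5ar1 (chr7:16246743-16259540, minus strand) differed, since its most open window lay in an intron, 4912 to 5211 bases into the gene, with 48 of 373 cut sites (12.9%). Both gates put it at the same position. The sequences below are shown because they are where the chromatin of these genes was most open at a well-defined site. They come from the RefSeq assembly GRCm38.p6, are written 5′ to 3′ on the minus strand, and capitals mark motif matches. For C1qb (chr4:136886201-136886402), C1qc (chr4:136893066-136893209) and C3ar1 (chr6:122856162-122856255) the part of the window upstream of both the GENCODE and the RefSeq gene start is given, which at C1qb leaves out 13 bases before the GENCODE start, and for C5ar1 (chr7:16254329-16254628) the whole intronic window.
C1qb, 202 bases: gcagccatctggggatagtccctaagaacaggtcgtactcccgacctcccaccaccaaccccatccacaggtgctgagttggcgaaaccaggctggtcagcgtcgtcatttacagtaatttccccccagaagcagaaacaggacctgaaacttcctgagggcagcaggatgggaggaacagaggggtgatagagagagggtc
C1qc, 144 bases: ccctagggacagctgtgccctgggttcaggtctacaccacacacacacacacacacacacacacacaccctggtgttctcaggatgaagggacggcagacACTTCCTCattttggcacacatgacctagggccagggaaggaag
C3ar1, 94 bases: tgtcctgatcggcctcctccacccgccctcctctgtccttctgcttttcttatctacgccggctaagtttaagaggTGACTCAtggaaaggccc
C5ar1, 300 bases: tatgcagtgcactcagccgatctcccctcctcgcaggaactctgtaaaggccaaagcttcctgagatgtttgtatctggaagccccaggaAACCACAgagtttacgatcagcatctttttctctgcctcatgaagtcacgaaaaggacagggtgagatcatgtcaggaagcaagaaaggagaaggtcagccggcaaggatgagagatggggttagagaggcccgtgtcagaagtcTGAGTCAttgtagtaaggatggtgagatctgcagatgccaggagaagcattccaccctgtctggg

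Both strands were searched for GAGGAAGT (PU.1, the lineage factor of macrophages and microglia), TTGCNNAA (C/EBP), GAAANNGAA (IRF), TTCNNNGAA (STAT), GGANTTTCC (NF-kB), TGANTCA (AP-1) and TGTGGTT (RUNX). The C1qc stretch held a PU.1 match at bases 101 to 108, counted from its first base, and C3ar1 held an AP-1 match at bases 77 to 83. The C5ar1 window held a RUNX match at bases 91 to 97 and an AP-1 match at bases 236 to 242, while no searched motif lay in the C1qb stretch. No matches overlapped each other. Of 27025 RefSeq promoters of 300 bases, 3.28% held the PU.1 letters, 10.8% those of C/EBP, 8.57% IRF, 8.47% STAT, 1.23% NF-kB, 7.93% AP-1 and 5.37% RUNX, and 36.5% held at least 1 of these motifs. The most open windows of C3 and Itgam with the marker gate held none, whereas the Itgam window that the profile gate placed elsewhere held 1 PU.1, 1 AP-1 and 2 C/EBP matches. A match of this kind describes the sequence and does not show that a factor was bound.

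**Figure D1:**
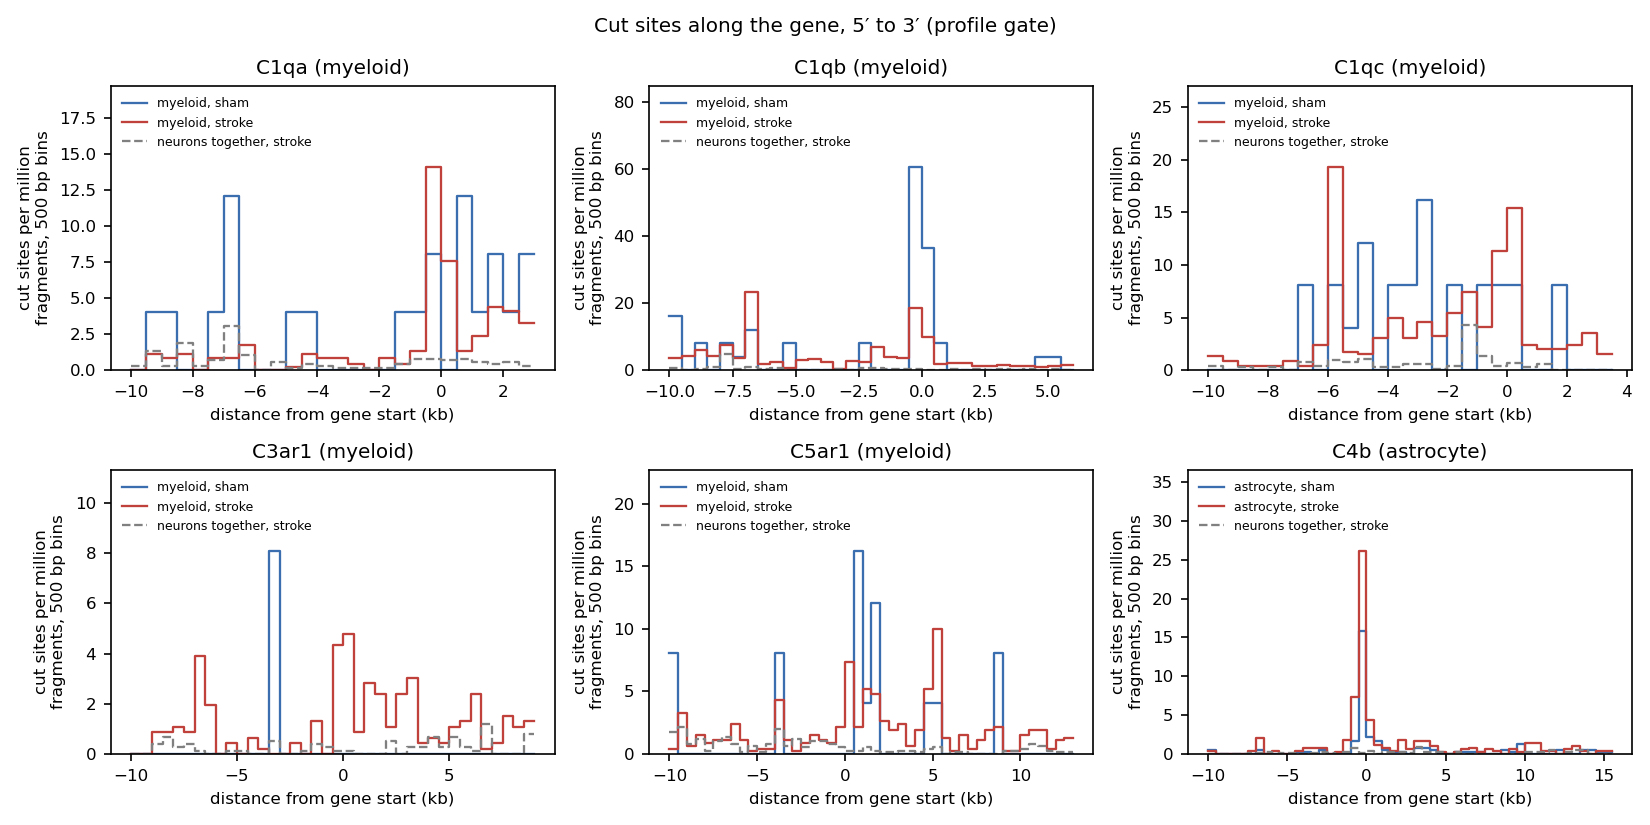
Cut sites per 1000000 fragments in 500-base bins (y axis) by distance from the start of the gene in kb (x axis), for C1qa, C1qb, C1qc, C3ar1 and C5ar1 in profile-gated myeloid-like nuclei and for C4b in astrocyte-like nuclei, with sham and stroke as separate lines and stroke neurons as a dashed grey line. In stroke the highest bin sits at the gene start for C1qa, C3ar1 and C4b and about 5 kb into the gene for C5ar1, while C1qb and C1qc have a peak at their own start and another upstream at the start of the neighbouring C1q gene; the sham myeloid-like lines rest on few cut sites.

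In the libraries as a whole, 6 of the 8 members were higher in stroke, and none was lower. Of the 21005 genes tested, 11.5% were called higher and 0.371% lower, and the median log2 ratio was 0.78 for the members and -0.03 for all genes. The members that passed 1.5-fold were C1qa, C1qb, C1qc, C4b, C3ar1 and C5ar1, and C3 and Itgam did not. At this level more nuclei of a type and more open chromatin per nucleus cannot be told apart.

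C1qa, the A chain of the recognition complex, had 151 fragments in sham (2.06 CPM) and 200 in stroke (3.79 CPM), a ratio of 1.84 (interval 1.48 to 2.29). C1qb, the B chain, had 197 and 245 fragments (2.68 and 4.64 CPM), a ratio of 1.73 (1.43 to 2.1). C1qc, the C chain, had 270 and 291 fragments (3.68 and 5.51 CPM), a ratio of 1.5 (1.27 to 1.78). All 3 chains, which are needed together to build the complex, were thus higher in stroke with overlapping intervals. The filter on fragments in peaks bears on this, since with all called barcodes the ratios were 1.45, 1.58 and 1.2, and C1qa and C1qc were no longer called. Together they went from 8.41 to 13.9 CPM, a ratio of 1.66 (1.49 to 1.85).

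C4b, the C4 gene whose product is cleaved after C1q has bound, had the highest library ratio of the 8 members in kept nuclei, while with all called barcodes its ratio was 1.71 and that of C3ar1 was 1.87. It went from 309 fragments (4.21 CPM) in sham to 495 fragments (9.38 CPM) in stroke, a ratio of 2.23 (1.93 to 2.58). C3, the central component on which all pathways meet, had 668 and 600 fragments (9.09 and 11.4 CPM), a ratio of 1.25 (1.12 to 1.40) that was below the threshold.

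The receptor for C3a, C3ar1, had 191 and 234 fragments (2.60 and 4.43 CPM), a ratio of 1.71 (1.40 to 2.08). The receptor for C5a, C5ar1, had 306 and 381 fragments (4.17 and 7.22 CPM), a ratio of 1.73 (1.49 to 2.02). Itgam (chr7:128062640-128118491, plus strand) had 607 and 623 fragments (8.26 and 11.8 CPM), a ratio of 1.43 (1.28 to 1.60), just below the threshold, and with all called barcodes the ratio was 1.63 and passed it. Its window overlaps another protein-coding gene, Gm49368, and fragments there cannot be assigned to either gene.

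At the most open windows described above, the count of cut sites in all kept nuclei was 16 in sham and 90 in stroke at C1qa, 33 and 105 at C1qb, and 21 and 117 at C1qc. It was 17 and 60 at C3ar1 and 26 and 76 at the intronic window of C5ar1. At the most open window of C3 it was 130 and 127, and at that of Itgam 171 and 91 with the marker gate but 34 and 65 with the profile gate, which placed the window elsewhere. The windows were placed with nuclei that came mostly from stroke, so these counts do not test a difference.

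Per kb of window, C1qc was the most open member in both libraries, at 0.699 CPM per kb in sham and 1.05 CPM per kb in stroke. In stroke C1qa followed at 0.775 CPM per kb (0.672 to 0.891). Below it came C1qb at 0.576, C4b at 0.536, C5ar1 at 0.488, C3 at 0.434 and C3ar1 at 0.402 CPM per kb, and each neighbouring pair in this run had overlapping intervals. Itgam was last, at 0.204 CPM per kb. In sham C4b stood near the end of the order, at 0.240 CPM per kb beside C3ar1 at 0.236 CPM per kb, and only Itgam was lower. The median protein-coding gene had 0.671 CPM per kb in sham and 0.665 CPM per kb in stroke. The windows ran from 4.89 kb at C1qa to 57.85 kb at Itgam, and the part of length in this order was not tested.

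Within stroke, the profile-gated myeloid-like nuclei had higher levels than the neurons at each member. Their density over the silent vomeronasal receptor genes was also higher, at 0.104 CPM per kb against 0.0357 CPM per kb in neurons. The part of this background in the ratios was not tested. The C1q genes together were 9.16 times the neuronal level (7.02 to 12.1), with C1qb alone at 16.2 times. C5ar1 was 6.87 times the neuronal level (4.78 to 10.1), C3ar1 5.53 times (3.44 to 9.23) and Itgam 5.24 times (3.86 to 7.21). C4b followed at 4.59 times (2.92 to 7.41) and C3 at 2.29 times (1.58 to 3.33). C1q, C5ar1, C3ar1 and Itgam thus stood further above neurons than C3 did, whose interval lay below theirs.

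In sham the same class stood above neurons by 12.9 times for C1q (8.19 to 19.6), 5.68 times for C5ar1 (2.03 to 12.9) and 4.34 times for Itgam (1.95 to 8.43). These rest on 26, 6 and 9 fragments. Over the vomeronasal receptor genes this class had 0.0994 CPM per kb in sham, against 0.0271 CPM per kb in neurons. C3 was 2.17 times the neuronal level (0.583 to 5.67), C4b 1.68 times (0.0417 to 9.82) and C3ar1 was at 0 fragments (0 to 5.05 times), so these 3 did not stand apart from neurons in sham. With the marker gate the C1q genes were 1.93 times the neuronal level in sham (1.30 to 2.82) and 6.37 times in stroke (4.82 to 8.53). The microglial genes differed between the gates in sham in the same way.

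Nuclei with at least 1 C1q fragment made up 14 of 39 profile-gated myeloid-like nuclei in sham, or 35.9% (21.2 to 52.8), and 166 of 323 in stroke, or 51.4% (45.8 to 57.0). Neurons, taken here for comparison, had 5.96% in sham and 7.53% in stroke. Thinned to 3000 fragments per nucleus, the myeloid-like shares were 17.4% of 23 nuclei in sham (4.95 to 38.8) and 26.6% of 271 in stroke (21.4 to 32.2), while neurons had 1.93% and 3.23%. At equal depth the share in myeloid-like nuclei was thus above neurons in both libraries, and the sham and stroke intervals overlapped. With the marker gate the thinned shares were 3.36% in sham and 24.4% in stroke.

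**Figure D2:**
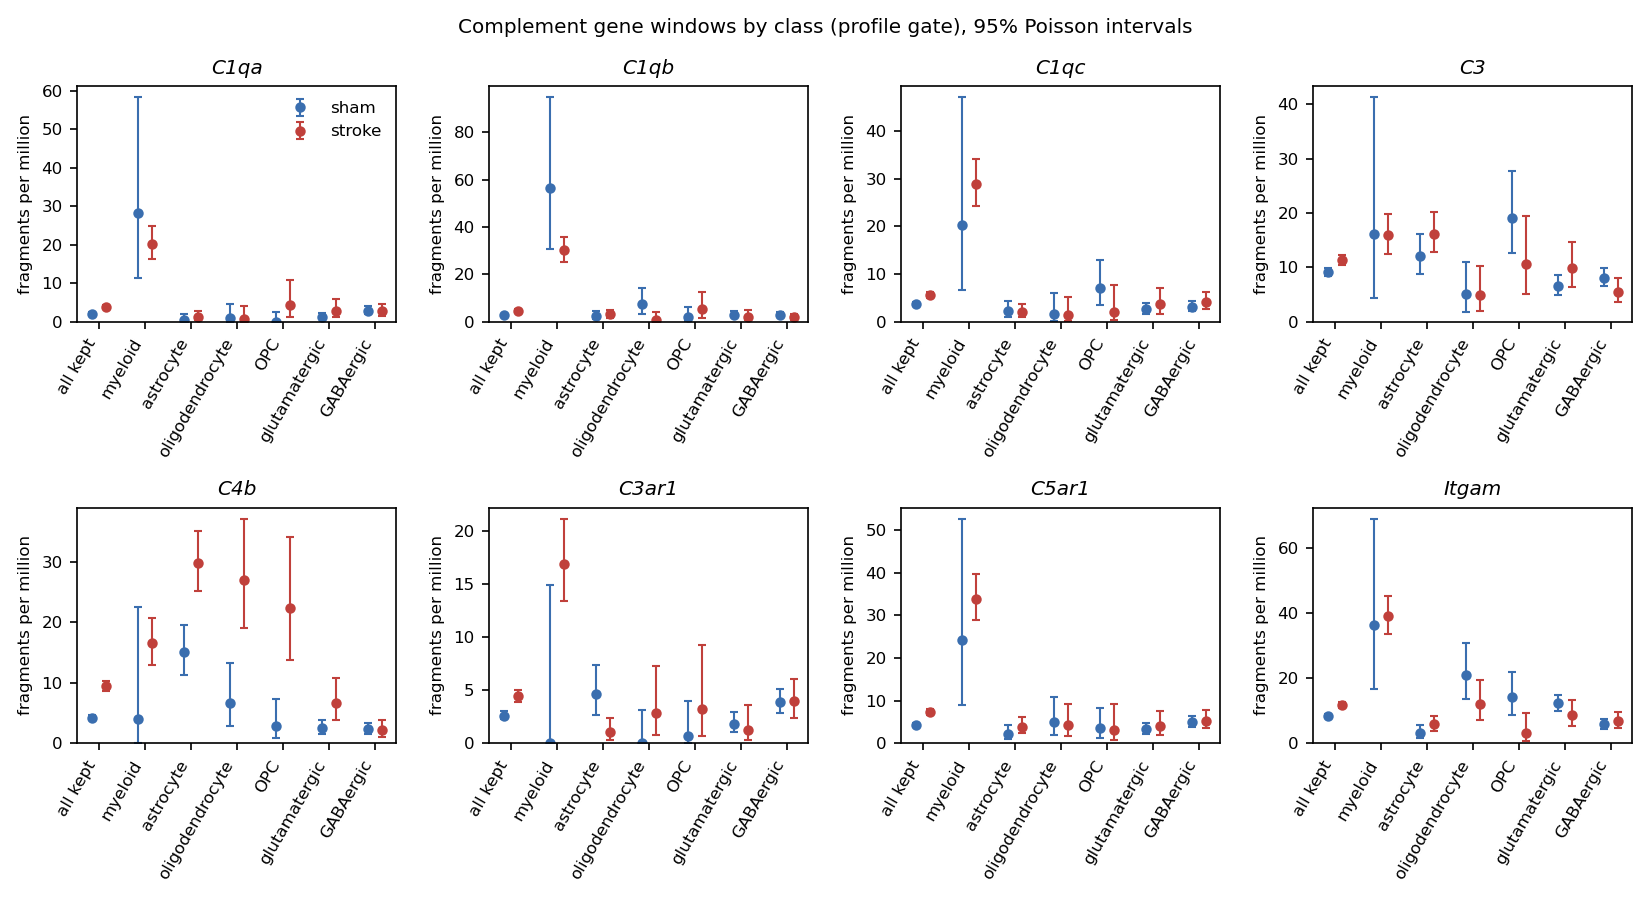
Level of each member (CPM, y axis) in all kept nuclei and in 6 profile-gated classes (x axis) in sham and stroke, with error bars giving exact 95% Poisson intervals for counting error. C1q genes, C5ar1 and Itgam are highest in myeloid-like nuclei, and C4b is highest in astrocyte-like nuclei, at 15 CPM in sham and 29.8 CPM in stroke. In stroke this C4b interval overlaps those of oligodendrocyte-like and oligodendrocyte precursor-like nuclei.

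Whether the C1q genes opened further within myeloid-like nuclei after stroke depended on the gate. In marker-gated nuclei they went from 41 fragments (20.7 CPM) to 282 fragments (78.4 CPM), a ratio of 3.79 (2.73 to 5.40). In profile-gated nuclei they went from 26 fragments (105 CPM) to 365 fragments (79.3 CPM), a ratio of 0.755 (0.507 to 1.17), and the counting error did not separate the conditions. Both gates gave nearly the same level in stroke, and the difference lay in sham, where the held-out microglial genes moved with it (118 and 392 CPM).

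Of the single chains, C1qa and C1qb had ratios above 1 with the marker gate and below 1 with the profile gate. The ratio of C1qc was above 1 with both. With the profile gate C1qa and C1qc were not called, and their intervals included equality. C1qa had 8.06 and 19.2 CPM with the marker gate, a ratio of 2.38 (1.37 to 4.39), and 28.3 and 20.2 CPM with the profile gate, a ratio of 0.715 (0.333 to 1.83). C1qb had 7.06 and 30.6 CPM with the marker gate, a ratio of 4.33 (2.48 to 8.18), and 56.5 and 30.2 CPM with the profile gate, a ratio of 0.534 (0.308 to 1.0). C1qc had 5.54 and 28.6 CPM with the marker gate, a ratio of 5.16 (2.77 to 10.7), and 20.2 and 28.9 CPM with the profile gate, a ratio of 1.43 (0.598 to 4.48). The profile-gated sham values rest on 7, 14 and 5 fragments, in the same order.

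For the receptors, C5ar1 had 9.57 and 34.5 CPM with the marker gate, a ratio of 3.60 (2.21 to 6.18), and 24.2 and 33.9 CPM with the profile gate, a ratio of 1.40 (0.628 to 3.87). Itgam had 17.6 and 41.4 CPM with the marker gate, a ratio of 2.35 (1.62 to 3.50), and 36.4 and 39.1 CPM with the profile gate, a ratio of 1.08 (0.554 to 2.39). Neither receptor was called in the profile-gated class. C3ar1 had few or no fragments in sham with either gate. It had 2 fragments in sham and 53 in stroke (1.01 and 14.7 CPM) with the marker gate, a ratio of 14.6 (3.85 to 124). With the profile gate it had 0 fragments in sham and 78 in stroke (16.9 CPM), which is at least 1.40-fold higher when 3 fragments are taken as the limit that a count of 0 allows. The exact 95% interval of the ratio starts at 1.11. That limit of 3 fragments is 12.1 CPM in this class, so the 0 does not show that the gene was more closed than in neurons.

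C4b showed the same form in myeloid-like nuclei. It had 3 and 57 fragments (1.51 and 15.8 CPM) with the marker gate, a ratio of 10.5 (3.41 to 52.3), and 1 and 76 fragments (4.04 and 16.5 CPM) with the profile gate, a ratio of 4.09 (0.712 to 164). C3 had 8.06 and 14.7 CPM with the marker gate, a ratio of 1.83 (1.03 to 3.42), and 16.2 and 15.9 CPM with the profile gate, a ratio of 0.982 (0.367 to 3.70). The profile-gate interval of C4b included equality, with 1 fragment in sham.

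In all, 8 of 8 members were called higher in the marker-gated myeloid-like class, where 16.5% of all genes were called higher and 15.4% lower. The density over the silent vomeronasal receptor genes moved with these ratios, from 0.0335 to 0.0903 CPM per kb in the marker-gated class against 0.0994 and 0.104 CPM per kb in the profile-gated one, and its part in them was not tested. In the profile-gated class C4b passed 1.5-fold and C1qb was called lower. C3ar1 made it 2 of 8 higher only because genes with 0 sham fragments count as higher, and its 3-fragment bound of 1.40 lies under the threshold. Counted the same way, 26.3% of all genes were called higher and 18.4% lower. The shares in the profile-gated class are near the background. The median log2 ratio of the members was 1.98 with the marker gate and 0.29 with the profile gate, beside -0.05 and -0.04 for all genes.

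**Figure D3:**
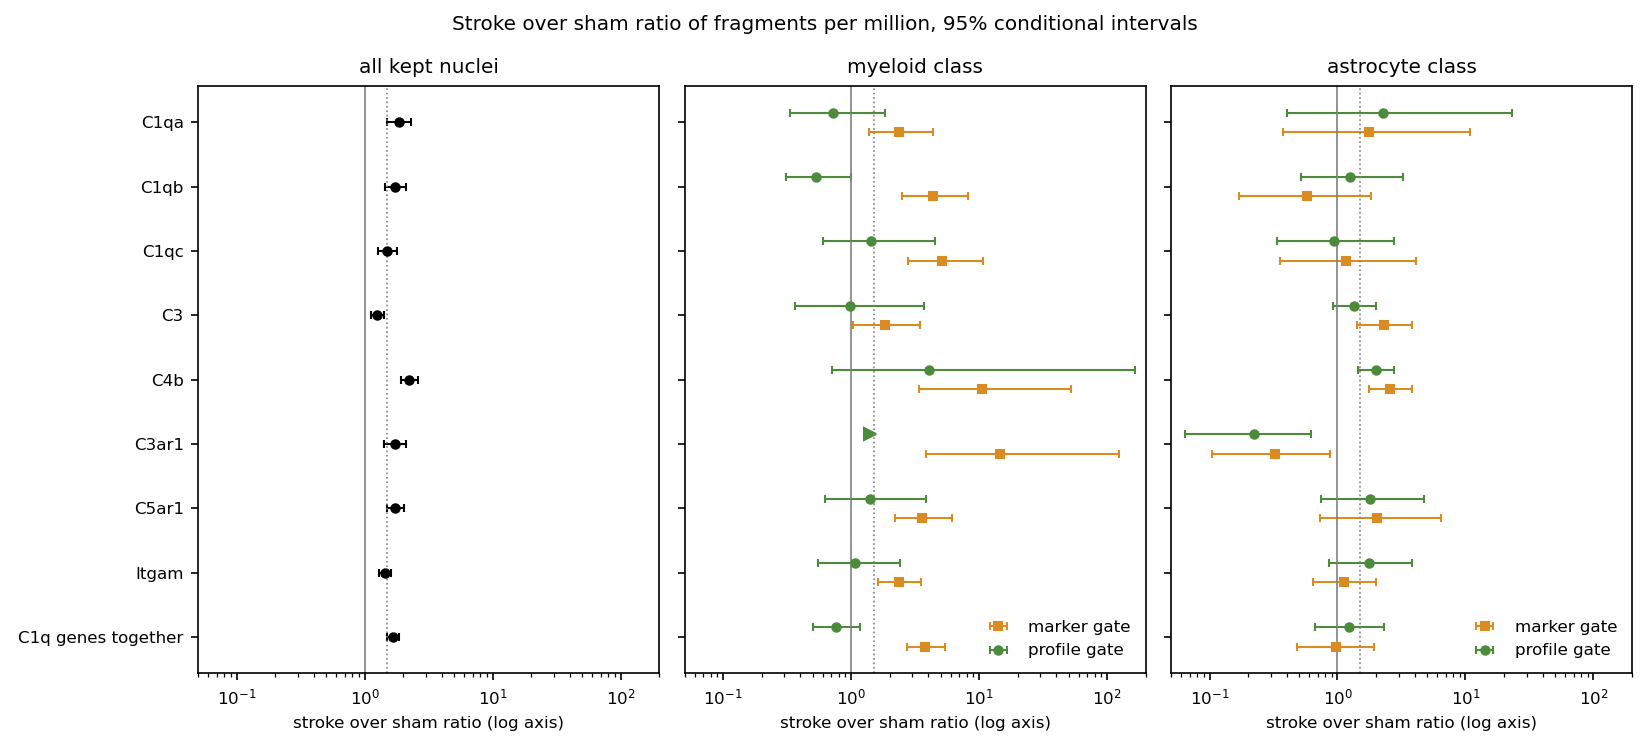
Ratio of stroke over sham (x axis, log scale) for each member in the whole libraries, in myeloid-like nuclei and in astrocyte-like nuclei with both gates. Bars are exact 95% intervals for counting error, and the dotted line marks 1.5-fold. A triangle marks C3ar1, which had 0 sham fragments, at the ratio with 3 fragments taken for that 0. In myeloid-like nuclei the marker-gate points all lie above 1.5 and the profile-gate points of C1qa, C1qb and C3 lie below 1.

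The share of C1q fragments that came from myeloid-like nuclei differed between the libraries. Profile-gated myeloid-like nuclei held 0.337% of all fragments in sham and 8.72% in stroke, and 4.21% and 49.6% of the C1q fragments. In stroke they also held 40.9% of the C5ar1 fragments, 33.3% of those of C3ar1, 28.9% of those of Itgam, 15.4% of those of C4b and 12.2% of those of C3. Once these nuclei were left out, the library ratio of the C1q genes went from 1.66 to 0.952 (0.834 to 1.09). Those of C3ar1, C5ar1 and Itgam went to 1.24 (0.998 to 1.54), 1.14 (0.954 to 1.36) and 1.13 (0.993 to 1.28). With the marker gate they went to 1.39 (1.13 to 1.72), 1.3 (1.1 to 1.55) and 1.2 (1.06 to 1.36). The profile gate left 57.3% of kept sham and 57.6% of kept stroke nuclei without a class. How many of these were myeloid was not tested.

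C4b and C3 were different in this respect. Without myeloid-like nuclei the C4b ratio was 2.07 (1.78 to 2.40), and that of C3 was 1.21 (1.07 to 1.35), both close to the values with them. With each class held at its share of sham fragments, the stroke library would give a ratio of 0.972 for C1q and 1.67 for C4b with the profile gate, and 1.35 and 1.98 with the marker gate. The marker gate, whose myeloid-like class held 2.70% and 6.82% of fragments, gave 1.14 (1.01 to 1.30) for C1q and 2.08 (1.79 to 2.42) for C4b without myeloid-like nuclei. Leaving nuclei out removes both their number and their openness, so these ratios do not tell the number and the openness apart.

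**Figure D4:**
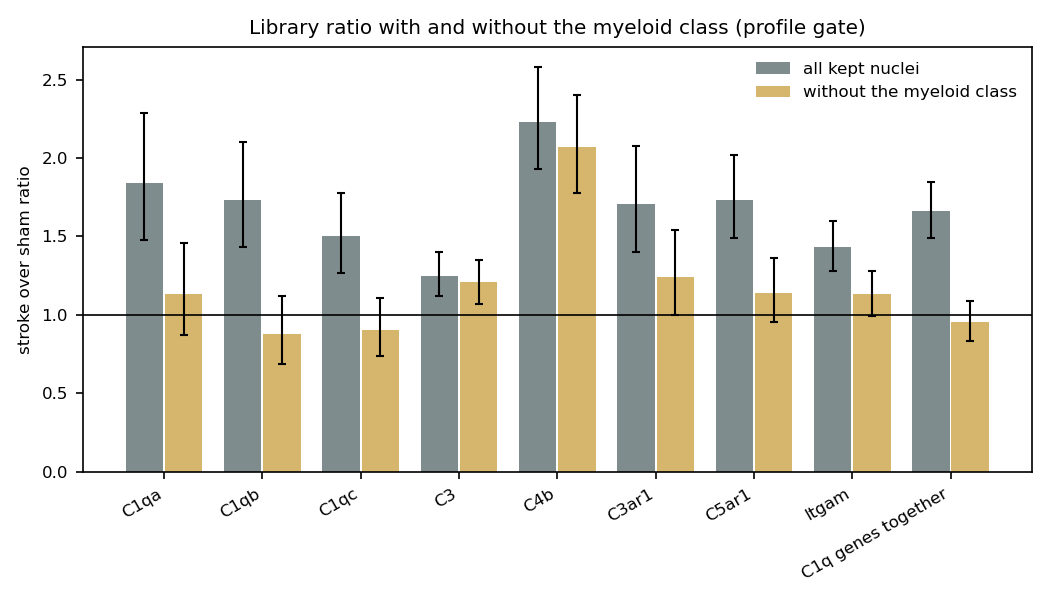
Library ratio of stroke over sham for each member (ratio on the y axis, members on the x axis) with all kept nuclei and without the profile-gated myeloid-like nuclei, with exact 95% intervals for counting error. C1q falls from 1.66 to 0.952 without these nuclei, whereas C4b stays at 2.07.

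C4b (chr17:34728380-34743882, minus strand) had its highest level in astrocyte-like nuclei. In profile-gated stroke nuclei the counting interval of this level overlapped those of the oligodendrocyte-like and oligodendrocyte precursor-like classes, given below. Windows tied for the maximum of 126 of 314 cut sites scanned in marker-gated astrocyte-like nuclei (40.1%). Their middle position, chr17:34743815-34744114 across the gene start, was taken as the most open window and held 35 cut sites in sham and 90 in stroke. C4b has a near-identical neighbour, C4a, and 30.3% of the 50-base stretches in the C4b window also occur in that of C4a, so reads from these stretches could be assigned to either gene or dropped. None of the 251 such stretches in the most open window was shared exactly. Near matches to C4a were not counted, so whether reads at the gene start were misplaced was not tested.

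In profile-gated astrocyte-like nuclei, 582 in sham and 648 in stroke, C4b went from 55 fragments (15 CPM) to 145 fragments (29.8 CPM), a ratio of 1.99 (1.45 to 2.76). The marker gate gave 38 and 111 fragments (10.1 and 25.8 CPM), a ratio of 2.55 (1.75 to 3.79). Both gates thus called C4b higher in astrocyte-like nuclei after stroke. Against neurons of the same library it was 6.24 times as open in sham (4.17 to 9.37) and 8.28 times as open in stroke (5.46 to 13).

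C4b was also higher in stroke in the oligodendrocyte lineage. Oligodendrocyte-like nuclei went from 8 to 38 fragments (6.71 to 27.0 CPM), a ratio of 4.03 (1.85 to 10.0) with the profile gate. Oligodendrocyte precursor (OPC)-like nuclei went from 4 to 21 fragments (2.84 to 22.3 CPM), a ratio of 7.85 (2.65 to 31.5). The marker gate gave 4.00 (1.91 to 9.15) and 3.82 (1.77 to 8.90), so both classes were called higher with either gate. Of all genes, 10.0% in oligodendrocyte-like and 8.29% in OPC-like nuclei were called higher with the marker gate, and 12.1% and 9.43% with the profile gate. In the 3 glial classes together the ratio was 2.65 (2.00 to 3.54) with the profile gate and 3.27 (2.41 to 4.49) with the marker gate.

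In neurons C4b was lower than in the 3 glial classes together in both libraries. Profile-gated neurons had 49 fragments in sham (2.40 CPM) and 27 in stroke (3.60 CPM), a ratio of 1.5 (0.900 to 2.44), with 2.60 (1.27 to 5.24) in glutamatergic-like and 0.937 (0.421 to 1.94) in GABAergic-like nuclei. Marker-gated neurons had 19 and 23 fragments (2.23 and 4.56 CPM), a ratio of 2.04 (1.06 to 3.97) that passed the threshold. The glial ratio was 1.77 times the neuronal one (1.02 to 3.05) with the profile gate and 1.60 times (0.814 to 3.15) with the marker gate. The interval for astrocyte-like nuclei alone, 1.33 times (0.756 to 2.33), included equality, whereas those for oligodendrocyte-like nuclei, 2.69 times (1.1 to 6.59), and OPC-like nuclei, 5.24 times (1.63 to 16.9), did not. The marker-gate intervals of the same 3 classes were 0.613 to 2.54, 0.768 to 5.0 and 0.721 to 4.84, all including equality. The intervals of these glial over neuronal ratios are approximate. In the profile-gated oligodendrocyte-like and OPC-like classes they rest on 8 and 4 sham fragments. They are counting intervals between single libraries and not tests of the condition.

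The window at the C4b start was placed in astrocyte-like nuclei, so its counts in other classes are not a ranking of the classes. The profile-gate window held 59 cut sites in sham and 122 in stroke in astrocyte-like nuclei (16.1 and 25.1 per 1000000 fragments). It held 3 and 20 in oligodendrocyte-like, 2 and 14 in OPC-like, 0 and 34 in myeloid-like, and 4 and 2 in neuronal nuclei. Over all kept nuclei there were 86 and 232 cut sites (1.17 and 4.40 per 1000000 fragments). The windows were placed with the nuclei of both libraries pooled, so these counts describe the site and do not test it.

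The share of astrocyte-like nuclei with a C4b fragment was 8.25% in sham and 16.4% in stroke, against 1.76% and 2.56% of neurons. Thinned to 3000 fragments the shares were 5.04% (2.97 to 7.95) and 7.20% (5.09 to 9.83), with 245 sham and 148 stroke nuclei too shallow to enter. At equal depth in these deeper nuclei a difference in the share was not detectable.

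The most open window of C3 (chr17:57203970-57228136, minus strand), placed in marker-gated myeloid-like nuclei, held 8 of 190 cut sites there (4.21%). In profile-gated astrocyte-like nuclei the C3 window placed with that gate held 16 of 132 cut sites in sham and 28 of 251 in stroke. In astrocyte-like nuclei it had 24 and 63 fragments (6.40 and 14.7 CPM) with the marker gate, a ratio of 2.29 (1.41 to 3.83). The profile gate gave 44 and 79 fragments (12 and 16.2 CPM), a ratio of 1.35 (0.925 to 2.00), which was not called. In OPC-like nuclei it had 27 and 10 fragments (19.1 and 10.6 CPM), a ratio of 0.554 (0.239 to 1.18), with the profile gate. Neurons had a ratio of 0.930 (0.665 to 1.28). No class thus showed a difference at C3 that both gates called.

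C3ar1 was lower in stroke in astrocyte-like nuclei with both gates, but 1.22 times as high when only the odd-numbered markers were used for gating. It had 17 and 5 fragments (4.63 and 1.03 CPM) in profile-gated astrocyte-like nuclei, a ratio of 0.222 (0.064 to 0.626), and 16 and 6 fragments (4.26 and 1.40 CPM) with the marker gate, a ratio of 0.327 (0.105 to 0.881). Neurons had 3.04 and 3.06 CPM. Astrocyte-like nuclei of sham were at 1.52 times the neuronal level (0.836 to 2.64) with the profile gate and 2.01 times (0.961 to 4.18) with the marker gate, which counting error did not separate from it. Among the members with enough fragments in astrocyte-like nuclei, 3 of 6 were called higher and 1 lower with the profile gate, against 8.79% and 6.03% of all genes. With the marker gate 3 of 5 were called higher and 1 lower, against 8.51% and 7.65%. C4b and C5ar1 were called higher with both gates, C3 with the marker gate alone and Itgam with the profile gate alone. The C5ar1 call rested on 6 sham and 14 stroke fragments with the marker gate. It did not hold with the marker gate at 3 times the expected number.

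Outside myeloid-like nuclei the C1q values varied between classes and gates. Neurons had 8.14 CPM in sham and 8.66 CPM in stroke with the profile gate, and nuclei without a class had 7.90 and 7.94 CPM. With the marker gate OPC-like nuclei had a ratio of 2.2 (1.16 to 4.27), and mixed nuclei, which passed for several classes, had one of 2.1 (1.41 to 3.17). The profile gate gave 1.27 (0.513 to 3.06) in OPC-like nuclei. These classes were thus not alike, and the OPC-like value was past 1.5-fold with 1 gate only.

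Oligodendrocyte-like nuclei had 12 and 4 C1q fragments (10.1 and 2.84 CPM) with the profile gate, a ratio of 0.283 (0.0665 to 0.933), whereas the marker gate gave 1.12 (0.490 to 2.52). Itgam in OPC-like nuclei had 20 and 3 fragments (14.2 and 3.18 CPM) with the profile gate, a ratio of 0.224 (0.0427 to 0.757), whereas the marker gate gave 1.24 (0.675 to 2.27). The stricter marker gate at 3 times the expected number gave lower values for both, 0.123 from 18 and 2 fragments for C1q and 0.375 (0.0404 to 1.72) from 11 and 2 fragments for Itgam.

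Members whose levels ran together across classes were sought over 16 profiles, the 8 marker-gated classes in both libraries. The measure was the Pearson correlation of log2(CPM + 5). For each member, the other genes named below were among the most similar of 15998 candidate genes. How high the best of that many would be by chance over 16 profiles was not tested. C1qb ran most closely with Rgs10 (r = 0.92), Vav1 (0.90) and Susd3 (0.89), and C5ar1 with Vav1 (0.91), Nsl1 (0.89) and Lcp1 (0.88). C1qa ran with Ptpn1 (0.89), Adgre1 (0.88) and Golm1 (0.86), and C1qc with Adgre1 and Itgax (each 0.85). Itgam ran with Snx24 (0.89), A630001G21Rik (0.88) and Cmtm7 (0.88), and C3ar1 with Slfn2 (0.83), Glipr1 (0.82) and Zc3h12d (0.81).

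C4b ran with other genes. Its most similar profiles were those of Cebpd (0.92), a C/EBP transcription factor of the acute-phase response, Sema6a (0.92) and Itga1 (0.90). C3 ran with Pkhd1 (0.86), Nuak2 (0.84) and Tfec (0.83). Among the members, C1qb and C5ar1 had r = 0.92 and C1qb and Itgam 0.89, whereas C4b had 0.05 with C1qa and 0.56 with C3. With the profile gate the most similar of 16356 candidate genes were others, such as Nmu (0.92), Phyhd1 (0.90) and Casq2 (0.88) for C4b. Of the genes named above, A630001G21Rik alone was again among the 3 most similar to the same member, at 0.91 with Itgam. The classes of a library share its depth and background, so these values are a description that depends on the gate.

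The wider complement list held 34 genes of the pathways around the members. In the whole libraries 4 of the 33 tested were higher and none was lower, a share near the 11.5% of all genes called higher. Those named here are C5ar2, a second receptor for C5a, at 2.76 and 5.68 CPM (ratio 2.06, 1.72 to 2.47), Vsig4, a macrophage receptor for C3 fragments, at 1.06 and 2.03 CPM (1.91, 1.41 to 2.59), and C9, the last component of the membrane attack complex, at 5.19 and 8.81 CPM (1.70, 1.48 to 1.95). The median log2 ratio of the list was 0.29. Most of the cascade outside the members thus stayed within 1.5-fold.

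In myeloid-like nuclei 10 of 27 listed genes were called higher and 4 lower with the marker gate, and 13 of 28 higher and 2 lower with the profile gate, where 4 of the 13 had 0 sham fragments. Of all genes, 16.5% were called higher and 15.4% lower with the marker gate, and 26.3% and 18.4% with the profile gate. Itgb2, the beta chain that pairs with Itgam, had 10.1 and 63.6 CPM with the marker gate, a ratio of 6.31 (3.99 to 10.5), and 36.4 and 68.0 CPM with the profile gate, a ratio of 1.87 (0.973 to 4.13). Cfi, Cr2, Itgax and Masp1 were also called higher with both gates, and no gene was called lower with both. C5ar2 had 3.53 and 31.7 CPM with the marker gate, a ratio of 8.98 (4.22 to 22.8), and 24.2 and 34.8 CPM with the profile gate, a ratio of 1.43.

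In astrocyte-like nuclei 9 of 27 listed genes were called higher and 4 lower with the marker gate, and 8 of 28 higher and 2 lower with the profile gate. Of all genes, 8.51% were called higher and 7.65% lower with the marker gate, and 8.79% and 6.03% with the profile gate, so the share called lower with the profile gate was near the background. C9 had 14 and 46 fragments (3.82 and 9.45 CPM) with the profile gate, a ratio of 2.48 (1.34 to 4.88). C1ra and C1s1, which encode the proteases of the C1 complex, and C6, C4bp and Itgb2 were called higher with both gates. Cfb, the protease component of the alternative pathway, had 29 and 20 fragments (7.91 and 4.11 CPM), a ratio of 0.520 (0.279 to 0.951), and C8b was lower as well, with both gates.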

How the data were processed

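Nuclei of flash-frozen mouse brain were profiled by 10x single-cell ATAC-seq, with 1 sham and 1 stroke library. The authors ran Cell Ranger ATAC (2.1.0 in the submitters' processing notes) on mm10 and deposited, per the file headers, fragment counts: each line gives a fragment, its barcode and the number of reads behind it, with duplicates merged. The files held 76959104 and 96465679 fragments, and the deposited table of counts per barcode gave the cell calls and the fragments in peaks. No column of another sample was used.

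Gene windows came from GENCODE M21. Each kept nucleus was counted once per fragment overlapping a window. The marker gate required at least 4 fragments over a class's markers (123 genes in all, none a member), 1.5 times the number expected and a Poisson tail under 0.001, and left out nuclei that passed for several classes about equally. The profile gate took seeds at 3 times the expected number and asked for a margin of 10 log likelihood units; it was added after the marker gate had been seen. Neither used doublet calling. The profile gate and the ratio step were tested on simulated data, and the marker gate was not. The simulated nuclei were drawn from the same class profiles that the gate compares with. That check therefore cannot show whether real nuclei were classed correctly. Python 3.11.15, numpy 2.4.6, scipy 1.17.1 and pandas 2.3.3 were used.

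The members and lists were chosen with earlier results of these data known. Named genes were the 8 members, genes of the wider list past 1.5-fold, the 3 genes most like each member (with at least 200 fragments) and markers; some genes under this rule are not reported here. RefSeq promoters matched 6 of the 8 members and all 6 equalled the genome. No reads were reprocessed here, and duplicates merged by the authors leave intervals that cover counting error only.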

Additional observations from a re-analysis of the deposited data

Results flagged for a closer look

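C3ar1, the receptor for C3a, drew attention because its stroke over sham ratio ran in opposite directions in 2 classes of nuclei. In myeloid-like nuclei the ratio was 14.6 with the marker gate. With the profile gate it was at least 1.40 if 3 fragments are taken for the sham count of 0, and the exact interval given above starts lower. In astrocyte-like nuclei it was 0.327 and 0.222. With 1 library in each condition the difference between the classes was not tested. The astrocyte-like values rest on 16 and 6 fragments with the marker gate and on 17 and 5 with the profile gate. With the odd-numbered markers alone the astrocyte-like ratio was 1.22, so its direction changed with the gate.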

How the results depend on the processing

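Of 859 values computed under other settings, the planned ones gave 482 that stayed the same, 189 that moved and 2 that reversed. Those chosen after seeing the data gave 116, 57 and 13. Ratios, levels and shares stayed the same if inside the counting interval of the main value, and counts of genes or nuclei if within 1.5-fold. Only ratios past 1.5-fold in the main setting, with at least 20 fragments, could count as reversed. Other ratios that crossed 1, such as that of Itgam below, are among the rest. The library ratio of the C1q genes, 1.66, was 1.38 with all called barcodes and 2.30 over promoters alone. Within myeloid-like nuclei, where it was 3.79, it was 7.32 with a gate at 3 times the expected number, 6.12 with the even-numbered markers, and below 1 with the profile gate (0.755), its margin at 30 (0.787) and nuclei of at least 3000 fragments (0.797). The count of members called higher there, 8, became 5 over promoters alone, where 5 were tested, and 2, 2 and 4 under those 3 profile settings. In the same order C1qa had 0.715, 0.963 and 0.749, C1qb 0.534, 0.514 and 0.513, and C3 0.982, 0.944 and 0.901, and Itgam had 0.960 under the last. C3 in astrocyte-like nuclei, 2.29, was 9.60 over promoters alone (from 1 and 11 fragments), 1.41 with the odd-numbered markers, and 1.35, 1.41 and 1.32 under the profile settings. C5ar1 there was 0.915 and Itgam, which was 1.13, was 0.629 with the gate at 3 times, and C3ar1 was 1.22 with the odd-numbered markers. Shares of marker-gated myeloid-like nuclei with a C1q fragment, 11.3% and 50.8%, fell to 3.36% and 24.4% when thinned. C4b in astrocyte-like nuclei stayed at least 1.5-fold higher under every setting run. The cause of these changes was not tested. No paired analysis was possible because sham and stroke were each represented by a single pooled library, and for the same reason no library could be left out. Depth limits the profile-gated sham myeloid-like class most, where 1 fragment is worth 4.04 CPM.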
